A study of Mus musculus with 4 samples.

Results

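The effect of Fbw7 loss was compared between 2 sorted populations of mouse bone marrow, gene by gene. For each gene the log2 difference between Fbw7-deficient and wild-type cells was taken in LSK cells and again in MP cells, and the MP difference was subtracted from the LSK difference. The result is called the double difference here; a value above 0 means that the difference in LSK was the more positive. Of 18194 genes named by at least 1 probe set, 12240 were kept because their highest value on the 4 arrays reached 157, the median intensity of all values. The genes nearest to that limit were Efna2, just outside with a highest value of 156.663, and Lrfn3, just inside with 156.689. Where a gene had several probe sets, the one that was brightest on average over the arrays stood for it.

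The 4 groups had 1 array each: WT LSK, Fbw7 deficient LSK, WT MP and Fbw7 deficient MP. LSK cells carry no lineage markers but do carry c-Kit and Sca1, and hold the hematopoietic stem cells and the early progenitors of several lineages. MP cells have the same lineage and c-Kit gate without Sca1 and hold the committed myeloid and erythroid progenitors. All mice, the wild-type controls included, had received polyI:C at 20 ug per g in 3 intraperitoneal injections, and marrow was taken 2 weeks after treatment. Marrow of 3 mice per genotype was pooled before sorting, so LSK and MP cells of 1 genotype share their animals. The sources used here do not give the age and sex of the mice, the Fbw7 alleles or any recombinase that removed the gene. No group had a replicate, so every value below is a difference between single arrays, with no error and no test. Higher and lower are used for a single gene's difference of at least 2-fold, which is 1 on the log2 scale, unless its smaller values are given.

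Fbw7, the product of Fbxw7, is the substrate-binding subunit of an SCF ubiquitin ligase. It marks phosphorylated proteins such as cyclin E, MYC and the cleaved form of Notch for degradation, and so limits proteins that drive growth and division. In blood-forming tissue it is known for its part in keeping stem cells quiescent. PolyI:C imitates double-stranded viral RNA and raises interferon. Arrays see RNA, so the protein level of a substrate is outside these data.

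Some measures of the arrays themselves differed. For the Gapdh controls the 3' to 5' ratio ranged from 2.60 to 2.95 on 3 arrays and was 4.30 for wild-type LSK, and for Actb it was 3.53 against a range of 2.67 to 2.99. The 24 poly-A control probe sets, whose RNA is added before labelling, had a median double difference of 0.63, from -0.04 in LSK and -0.68 in MP. The 18 hybridisation control probe sets had a median double difference of 0.02. The part of these measures in any result was not tested. In sorted pools such as these, a different share of cells of one type and a different RNA level per cell cannot be told apart. Among markers of the sorted cells, the summed intensity of 7 LSK-like genes was 20381 and 7304 on the wild-type and Fbw7-deficient LSK arrays, and 2615 and 1575 on the corresponding MP arrays. Sca1 itself, encoded by Ly6a, is not named by the annotation used here.

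The genotype differences of LSK and MP cells were related but far from equal. Across the 12240 genes Pearson's r between them was 0.44 and Spearman's rank coefficient 0.39, a description across genes, which are not independent replicates; the comparisons share no array but do share the pools of mice. In LSK 219 genes (1.79%) were higher and 239 (1.95%) lower, and in MP 101 (0.825%) were higher and 182 (1.49%) lower. The higher sets had 46 genes in common, 21.0% of the LSK set and 45.5% of the MP set. The lower sets had 55 in common, 23.0% of the LSK set and 30.2% of the MP set. The double difference had an SD of 0.42 over genes and reached 2-fold in 431 genes (3.52%), with 269 (2.2%) higher and 162 (1.32%) lower. It reached 2-fold in 4.48% of the 3060 dimmest genes and in 1.86% of the 3060 brightest.

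Genes were sorted by the joint pattern of both differences. A class was called LSK-weighted when the LSK difference and the double difference both reached 2-fold in the same direction, unless the gene belonged to the opposite class below, which took precedence; this gave 110 genes higher (0.899%) and 60 lower (0.49%). A class was called MP-weighted by the same rule for MP, with 27 genes higher (0.221%) and 38 lower (0.31%). The opposite class held 77 genes (0.629%) whose differences had opposite signs, each of at least 0.5 on the log2 scale, with a double difference of at least 2-fold; these genes are in no weighted class. In shared classes both populations passed 2-fold in the same direction, 46 genes higher (0.376%) and 55 lower (0.449%), and a shared gene could also be weighted to one population. A further 119 genes had a 2-fold double difference and fell in no class, since neither population reached the limits alone. Because the classes are made from the same values, their sizes describe these arrays. The order of the arrays within a class follows in part from its rule.

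**Figure D1:**
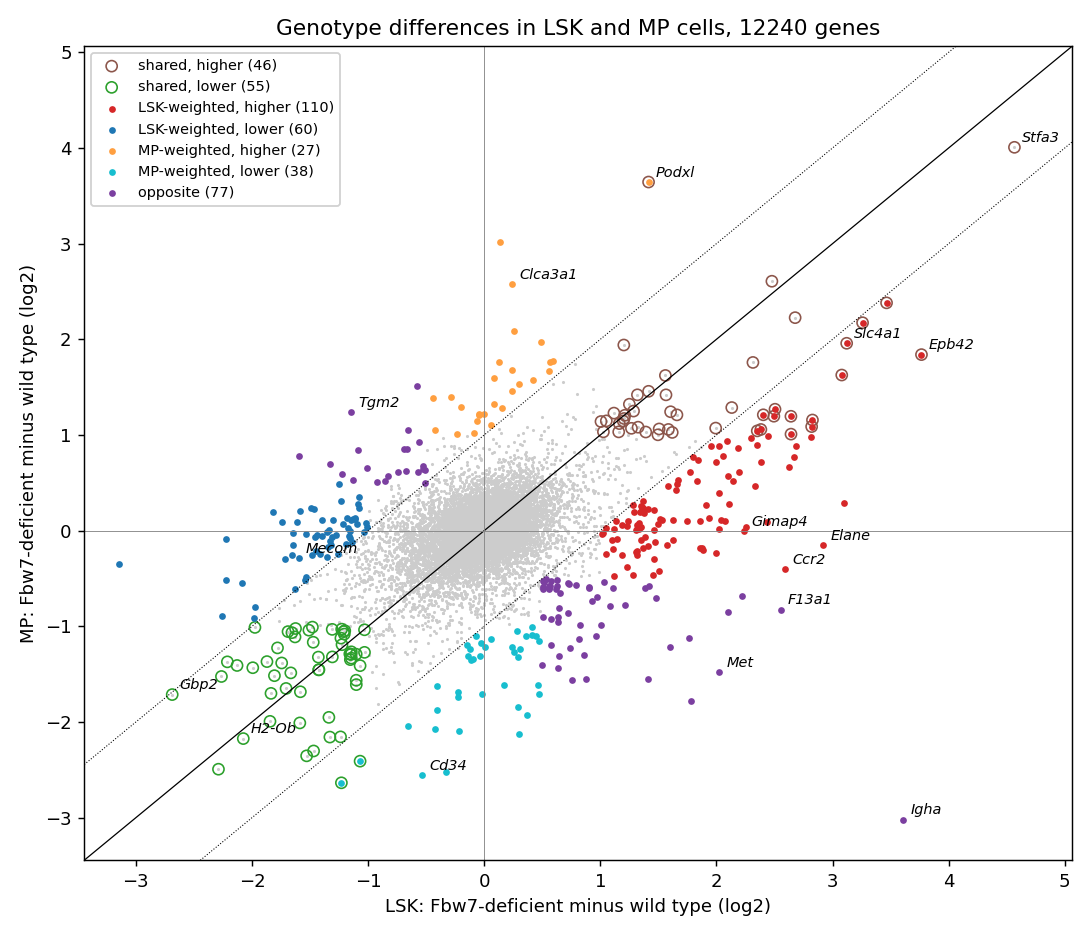
Each point is 1 of 12240 genes, with the Fbw7-deficient minus wild-type difference in LSK (x axis, log2) against that in MP (y axis, log2); colours and rings mark the classes, the solid line equal differences and the dotted lines a double difference of 1. Elane lies far right near 0 on the y axis (2.92, -0.15), Igha in the lower right (3.61, -3.02) and Podxl at the top (1.42, 3.64).

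A second probe set for a gene gives a technical check within the same RNA. Of the 431 genes, 155 had a further probe set above the level filter, and in 127 of them every further probe set had a double difference of the same sign; in 50 it was also 2-fold. Over all genes with a further probe set the same sign was found in 2686 of 5281 genes, or 50.9%. These shares are not like for like, because the 431 genes were chosen by the size of the double difference. Over all genes kept its quartiles were -0.20 and 0.20, so many signs rest on small values. By class, the sign was kept in 27 of 30 genes for LSK-weighted higher, 19 of 22 for LSK-weighted lower, 5 of 8 for MP-weighted higher, 13 of 16 for MP-weighted lower and 26 of 30 for opposite genes. It was also 2-fold in 14, 4, 2, 4 and 14 of these genes, in the same order of classes. For shared genes the direction was kept in both populations in 18 of 19 genes of the higher class and in 29 of 31 of the lower class, but the further probe sets were 2-fold in both populations in 7 and 3 of these genes.

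Lists of neutrophil genes and of granulocyte-monocyte progenitor genes had medians above 0 in LSK and near 0 in MP. The mature neutrophil list had a median genotype difference of 1.28 in LSK and 0.11 in MP, and 17 of its 29 kept members had a double difference of at least 2-fold higher, none lower, against 2.2% and 1.32% of all genes. Of those members 12 were LSK-weighted higher. The granulocyte-monocyte progenitor list had medians of 0.76 and -0.12. Of its 31 members 12 were 2-fold higher in LSK and 4 were 2-fold lower in MP, against 1.79% and 1.49% of all genes. In the double difference 17 members were 2-fold higher and none lower. Of the 17, 7 were LSK-weighted higher and 7 opposite. Over all genes the medians were 0.00 in both populations. The summed intensity of 8 neutrophil markers was 84178 (wild type) and 156870 (Fbw7-deficient) in LSK, and 146649 and 153193 in MP, with none of the markers below the level filter, and the part of such cells was not tested.

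Elane, which encodes neutrophil elastase, had intensities of 1322 (wild type) and 9986 (Fbw7-deficient) in LSK, and of 23552 (wild type) and 21158 (Fbw7-deficient) in MP. Both MP arrays were high and the wild-type LSK array alone was low, so the LSK difference was 2.92, the MP difference -0.15 and the double difference 3.07. Ms4a3, a gene of granulocyte-monocyte progenitors, read 1225, 6609, 13381 and 14225 in that order of arrays, which is kept below wherever 4 intensities are given. Hp, the haemoglobin-binding protein haptoglobin, read 2070, 7616, 9148 and 8050. In these genes the Fbw7-deficient LSK level moved toward the MP level without reaching it. Granule genes that neutrophils make later gave another order: the collagenase gene Mmp8 read 612, 2223, 1084 and 955, so Fbw7-deficient LSK was the highest of the arrays. The same held for Ltf, which encodes lactoferrin, at 4904, 15132, 8866 and 9563. Of the 110 LSK-weighted higher genes, 58 read highest in Fbw7-deficient LSK and 42 lay between wild-type LSK and wild-type MP. Not every granule gene was uneven at 2-fold. Mpo, the myeloperoxidase gene, had differences of 0.36 and 0.01, and S100a8, of the calprotectin complex, 0.70 and 0.01.

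Other members of this class were genes of inflammatory cells. Ccr2, the chemokine receptor by which monocytes leave marrow, read 578, 3476, 1593 and 1208, a double difference of 2.99 that was 2.01 with the mean of all its probe sets. Cybb, the catalytic subunit of the phagocyte oxidase, read 758, 2802, 1887 and 1636. Fcgr3, an IgG receptor gene, read 372, 1524, 2884 and 3106. Cebpd, a transcription factor gene of the C/EBP family, read 810, 2006, 2648 and 2272, a double difference of 1.53 (0.91 with the mean of its probe sets). Gimap4, a GTPase gene of lymphocytes, was the 1 member of 8 kept GIMAP genes that was 2-fold higher in LSK. It read 275, 1297, 203 and 202, with a double difference of 2.24 and of 2.92 on a further probe set, while the 8 genes had a median double difference of 0.04. That family list had been chosen after its values were seen in earlier work on these data.

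The promoters of LSK-weighted higher genes, which have a common pattern by the rule of the class, were examined next. Promoter sequences are from RefSeq (build GRCm38.p6) and cover 250 bases upstream of the gene start; 87 of the 110 genes were matched, and 9901 of the 12240. The letters GAGGAAG, a form of the site bound by the myeloid factor PU.1, were searched on both strands. They were found in 21.8% of these promoters and in 11.0% of all, and in 12.9% of the 62 opposite promoters. The RUNX motif TGTGGT was found in 24.1% against 10.8% of all, and in 27.3% of shared higher and 20.0% of MP-weighted higher promoters, so it was not particular to this class. Of 8 motifs searched, some were less frequent in the class than in all promoters, such as the metal response motif TGCGCNC (6.90% against 21.3%) and the E-box CACGTG (5.75% against 8.32%). The class also had a lower median GC content, 51.2% against 59.6%, and a median of 4 CpG sites against 15, and the part of base composition in the motif shares was not tested. Elane (chr10:79886062-79886311, plus strand) is shown as the member first in its class by double difference and F13a1 (chr13:37050245-37050494, minus strand), the coagulation factor XIII gene, as one of the opposite genes; capitals mark the motif, which begins 85 bases before the start in Elane and 66 before it in F13a1.
Elane: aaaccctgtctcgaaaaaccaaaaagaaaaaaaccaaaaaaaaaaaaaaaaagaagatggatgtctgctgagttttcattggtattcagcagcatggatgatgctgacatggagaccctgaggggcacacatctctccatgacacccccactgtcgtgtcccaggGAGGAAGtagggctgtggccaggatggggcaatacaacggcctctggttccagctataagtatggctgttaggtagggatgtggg
F13a1: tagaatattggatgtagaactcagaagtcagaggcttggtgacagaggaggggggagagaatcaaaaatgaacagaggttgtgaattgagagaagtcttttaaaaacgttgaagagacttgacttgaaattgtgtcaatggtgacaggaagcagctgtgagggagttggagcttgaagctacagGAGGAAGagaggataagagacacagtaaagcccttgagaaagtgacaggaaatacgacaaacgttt
A match is a run of letters and does not show binding.

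**Figure D2:**
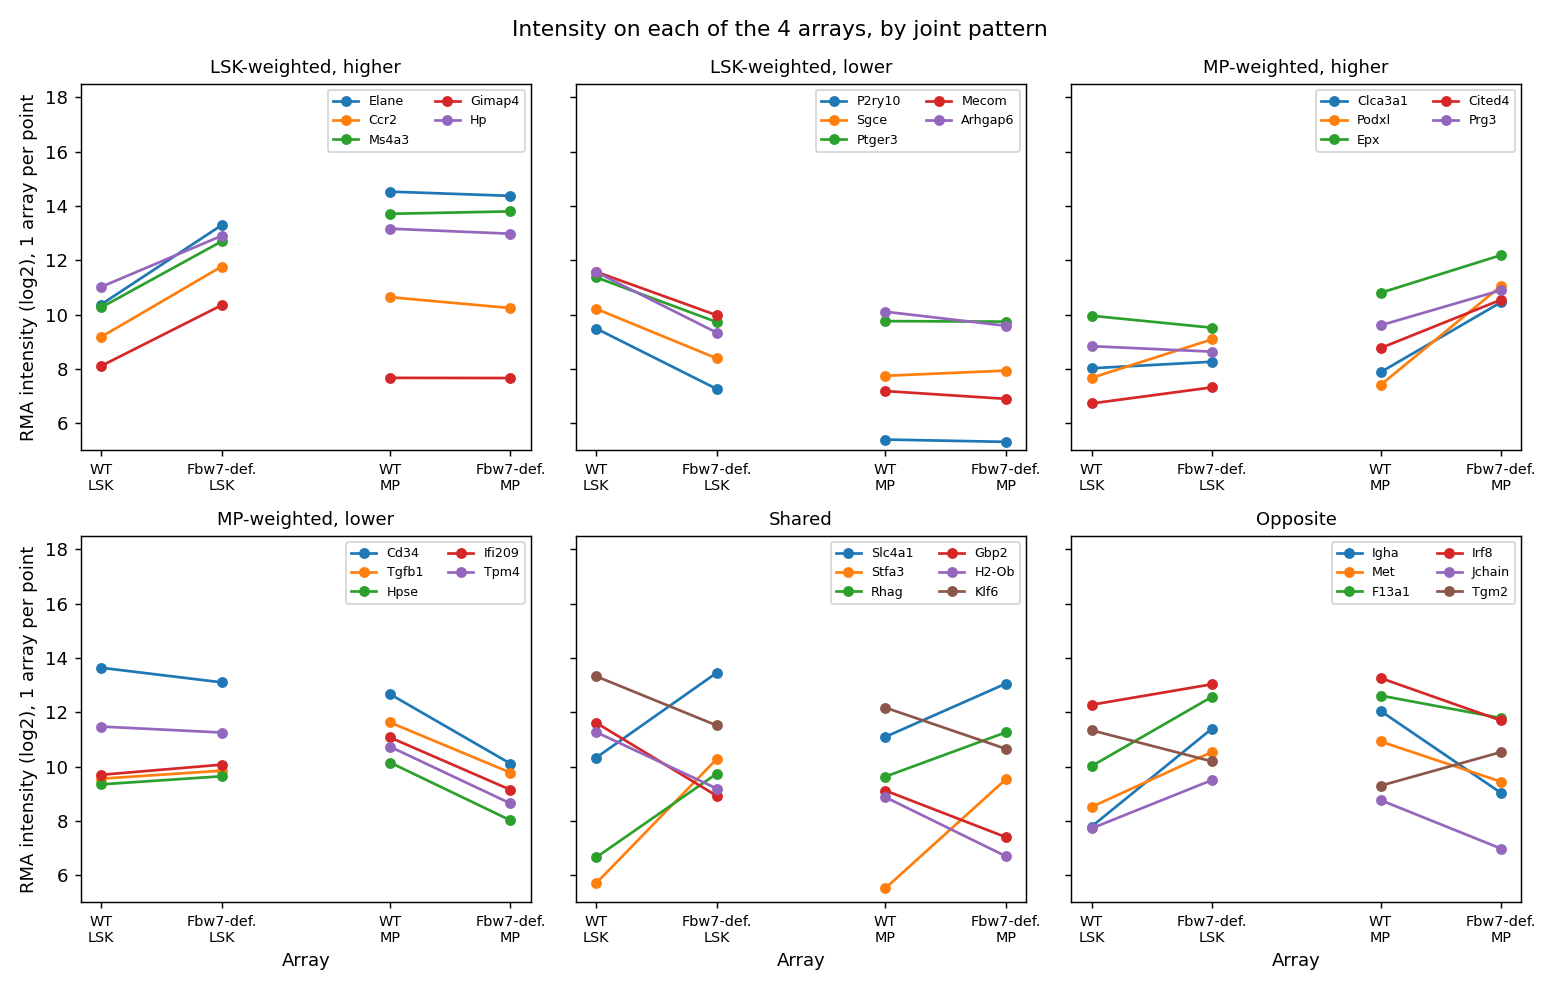
Log2 RMA intensity (y axis) on each of the 4 arrays (x axis) for 5 or 6 genes of each joint pattern; each point is 1 array and lines join the genotypes within a population. Elane climbs only between the LSK arrays, Cd34 drops mainly between the MP arrays (6491 to 1103), and Igha runs up in LSK and down in MP.

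The erythroid list had medians above 0 in both populations, and 20 of its 38 members were 2-fold higher in LSK and 7 in MP, none lower. Of all genes 1.79% were 2-fold higher in LSK and 0.825% in MP. Medians of the erythroid list were 1.03 in LSK and 0.61 in MP, with 35 of 38 members above 0 in MP, against 6067 of the 12240 genes; 11 had a double difference of at least 2-fold higher and 1 lower, against 2.2% and 1.32% of all genes. All 11 were LSK-weighted higher, and 5 of the 11 were also shared. Slc4a1, the anion exchanger band 3, read 1289, 11215, 2182 and 8481. Rhag, the Rh-associated glycoprotein, read 101, 855, 792 and 2447, and Epb42, protein 4.2 of the membrane skeleton, read 60.7, 826, 197 and 706. For all 3 genes both Fbw7-deficient arrays were above both wild-type arrays. In Rhag and Epb42 the wild-type LSK value lay below the level filter, where a fold is not established; with dim values raised to the median of all values their double differences were 0.82 and 0.56, in place of 1.45 and 1.93. Rhd, a second Rh gene, read 358, 2282, 2640 and 4490, all above the filter, with a double difference of 1.90. Trim10, a gene of terminal red cell formation, read 420, 2619, 996 and 2004, and Ermap, a red cell adhesion gene, 660, 2750, 5612 and 9616. The summed intensity of 7 erythroid markers was 4227, 19819, 12472 and 28169, and 6 of the 7 were among the genes kept. Below the filter were 3 of the 7 in wild-type LSK and 1 on each of the other arrays. The part of red cell precursors in these values was not tested.

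Some erythroid regulators, picked after their values were seen, are given for comparison. Gata1, the central erythroid transcription factor, read 1528, 1784, 3929 and 5992, with differences of 0.22 in LSK and 0.61 in MP. Epor, the erythropoietin receptor gene, had 0.34 and 0.94, and Tal1 had -0.20 and 0.65. Gfi1b, a repressor gene of red cell and platelet formation that stands in the stem cell list here, had -0.33 and 0.67. None of these 4 reached 2-fold in either population. Their double differences were all below 0, at -0.39 for Gata1, -0.60 for Epor and -0.85 for Tal1, and that of Gfi1b just reached 2-fold lower. Not all regulators were below 0. Klf1, the activator of globin genes, read 1014, 3035, 5856 and 11681, a double difference of 0.59. Cited4, a coactivator gene, was the 1 member of the erythroid list 2-fold lower in the double difference, at 106, 159, 435 and 1491 (-1.19; -0.59 with the mean of its probe sets).

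The GATA motif AGATAA, searched on both strands, was found in 19.5% of LSK-weighted higher promoters and in 15.2% of the 33 shared higher promoters. Among all promoters it was found in 6.17%, with the difference in base composition given above. The other classes were also above that share. They had 10.7% for MP-weighted lower, 10% for MP-weighted higher, 9.68% for opposite, 7.32% for LSK-weighted lower and 7.14% for shared lower promoters. Rhd (chr4:134864286-134864535, plus strand) and Epb42 (chr2:121036878-121037127, minus strand) are shown as 2 erythroid members that hold the motif; the double difference of Epb42 rests on a dim value, as given above. Capitals mark the motif, at 43 bases before the start in Rhd and, on the other strand, 226 before it in Epb42.
Rhd: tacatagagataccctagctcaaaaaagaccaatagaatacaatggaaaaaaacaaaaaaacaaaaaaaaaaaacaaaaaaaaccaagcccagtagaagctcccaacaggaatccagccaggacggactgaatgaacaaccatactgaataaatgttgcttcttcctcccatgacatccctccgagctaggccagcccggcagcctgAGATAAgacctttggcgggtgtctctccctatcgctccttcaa
Epb42: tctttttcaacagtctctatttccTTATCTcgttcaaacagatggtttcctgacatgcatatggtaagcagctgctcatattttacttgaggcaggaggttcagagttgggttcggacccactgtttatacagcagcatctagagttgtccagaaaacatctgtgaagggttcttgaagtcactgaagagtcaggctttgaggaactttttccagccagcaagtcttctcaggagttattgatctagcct

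The stem cell list had medians below 0 in both populations, further in LSK, where 13 of its 48 members were 2-fold lower. In MP 7 were so, and of all genes 1.95% were 2-fold lower in LSK and 1.49% in MP. Medians of the stem cell list were -0.62 in LSK and -0.27 in MP, with 45 of 48 members below 0 in LSK and 34 in MP. Its median double difference was -0.40; 10 members were at least 2-fold lower in it and 1, Cd34, higher, against 1.32% and 2.2% of all genes. The LSK-weighted lower members were 5: Hlf, Mecom, Eya2, Thy1 and Mllt3. For Eya2 the double difference of -1.40 was -0.25 with dim values raised. Hlf, a transcription factor gene of stem cells, read 5515, 1677, 478 and 391, and Mecom, which encodes EVI1, read 3043, 1006, 145 and 119. Mllt3, which supports stem cell maintenance, read 1104, 498, 645 and 697. In Hlf and Mecom wild-type LSK was the highest array and MP lay below Fbw7-deficient LSK. In Mllt3 Fbw7-deficient LSK had become the lowest. For Mecom the double difference of -1.31 was -0.52 with the mean of all its probe sets. Both MP values of Mecom lay below the level filter, so its MP difference of -0.29 is uncertain. Among 60 LSK-weighted lower genes 53 were at least 2-fold above MP in the wild-type LSK cells, against 5.05% of all genes. Between the Fbw7-deficient arrays 8 were so, against 3.86% of all genes. The rule for the class uses the same values and favours such a fall, so these counts are no separate result. In 28 of the 60 all 4 arrays were above the filter.

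Other genes of the class follow by the naming rule. P2ry10, a receptor gene for lysophospholipids, read 715, 153, 42.1 and 39.7. Its MP values and its Fbw7-deficient LSK value lay below the filter. Ptger3, a prostaglandin E2 receptor gene, read 2639, 844, 865 and 854, so the Fbw7-deficient LSK level was close to both MP levels (double difference -1.63; -0.73 with the mean of its probe sets). Sgce, the epsilon-sarcoglycan gene, read 1182, 334, 214 and 245 (double difference -2.01; -1.15 with the mean of its probe sets). Gata3, a regulator of stem cells and T cells that is itself a reported Fbw7 substrate, read 225, 79.9, 47.8 and 56.3, with only wild-type LSK above the filter; its double difference of -1.73 was -0.52 with dim values raised to the median.

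Not all stem cell genes were uneven. Meis1, a Hox cofactor gene, read 6798, 2450, 1041 and 464, lower by 1.47 in LSK and 1.17 in MP on the log2 scale. Hoxa9 had differences of -0.50 and -0.64, and Procr, the endothelial protein C receptor gene, -1.07 and -0.68. Megakaryocyte genes, many of them shared with stem cells, had medians of -0.65 in LSK and -0.42 in MP. Of the 25 members 9 were 2-fold lower in LSK and 5 in MP, against 1.95% and 1.49% of all genes. Their median double difference was -0.39, near the -0.40 of the stem cell list, with 17 of 25 members below 0. In the double difference 1 of 25 members was 2-fold lower, against 1.32% of all genes. It was Slc35d3, of platelet granules, at 474, 98.9, 174 and 94.0. Pf4, platelet factor 4, read 4338, 1272, 4032 and 2305. Itga2b, the platelet integrin CD41, read 3384, 1320, 2334 and 1427. In both genes each Fbw7-deficient array was below its wild-type array, with double differences of -0.96 for Pf4 and -0.65 for Itga2b.

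The MP-weighted classes were smaller than the LSK-weighted ones. In any of the gene lists were 11 of the 38 lower and 8 of the 27 higher genes, against 926 of all 12240 genes. For the LSK-weighted classes these counts were 9 of 60 lower and 46 of 110 higher genes. Cd34, the sialomucin that separates myeloid progenitor stages, read 12745, 8783, 6491 and 1103. The Fbw7-deficient MP array stood far below the others, with differences of -0.54 in LSK and -2.56 in MP. Podxl, a sialomucin of the same family, went the other way, at 203, 542, 169 and 2117, but a further probe set gave a double difference of only -0.28 in place of -2.23. Of the 38 MP-weighted lower genes, Fbw7-deficient MP was the lowest array in 35, and 31 had all 4 arrays above the filter. Tgfb1, which encodes a growth inhibitor of progenitors, read 751, 921, 3154 and 876 (double difference 2.14; 1.15 with the mean of its probe sets). Hpse, the heparanase gene, read 650, 799, 1135 and 260. Cebpa, the transcription factor gene required for granulocyte-monocyte progenitors, read 451, 601, 1416 and 706. Bcl2, an inhibitor of cell death, read 4032, 3448, 2782 and 864 (double difference 1.46; 0.93 with the mean of its probe sets), and Pmaip1, a promoter of cell death, 131, 181, 384 and 126. Tpm4, a tropomyosin gene, read 2841, 2441, 1698 and 399.

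The early lymphoid list had a median near 0 in LSK and below 0 in MP. Dntt, terminal deoxynucleotidyl transferase, read 14365, 17155, 794 and 329. Ighm, the immunoglobulin M heavy chain gene, read 7738, 10544, 5850 and 2718. Both results depended on the probe set: without the kinds marked as cross-reacting the double difference was 0.07 in place of 1.53 for Dntt and -0.02 in place of 1.55 for Ighm. The list had medians of -0.02 in LSK and -0.60 in MP. Of its 28 members 9 were 2-fold lower in MP (1.49% of all genes), and 6 were 2-fold higher and 1 lower in the double difference, against 2.2% and 1.32% of all genes. Flt3, the receptor tyrosine kinase of lymphoid-primed progenitors, read 6679, 4433, 1229 and 521, lower in both populations (-0.59 and -1.24).

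Of the 27 MP-weighted higher genes, Fbw7-deficient MP was the highest array in 24. Eosinophil and basophil genes were among them. Epx, eosinophil peroxidase, read 992, 731, 1779 and 4654, and Prg3, an eosinophil granule protein gene, read 456, 397, 777 and 1902. Fcer1a, a chain of the IgE receptor, read 72.1, 59.0, 111 and 294, with only the last above the filter (double difference -1.69; -0.91 with dim values raised). Epx and Prg3 were lower in LSK and higher in MP, although the LSK differences stayed under 0.5. For Fcer1a both LSK values lay below the filter, so its direction in LSK is not established. The list of mast cell, basophil and eosinophil genes as a whole had medians of -0.29 and -0.01, so Epx, Prg3 and Fcer1a were exceptions in it. Of its 17 kept members 4 were 2-fold lower and 2 higher in the double difference, against 1.32% and 2.2% of all genes. Hdc, a member of the list, went the other way at 1244, 2056, 6879 and 3790. Its differences were 0.72 in LSK and -0.86 in MP, a double difference of 1.58. Cpa3, the mast cell carboxypeptidase gene, belonged to the shared lower class. Clca3a1, a chloride channel regulator gene, read 260, 307, 235 and 1398, and Sox6, a factor gene of red cell formation, 515, 609, 173 and 553. Without probe sets marked as cross-reacting their double differences were -1.26 and -0.55, in place of -2.33 and -1.43. Trgv4, a T cell receptor gamma segment, read 71.3, 78.2, 67.1 and 545, with 3 of the 4 arrays below the filter (double difference -2.89; -1.80 with dim values raised).

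Several genes of monocytes, dendritic cells and B cells had opposite signs. Of the 77 opposite genes 55 were higher in LSK and lower in MP, and 22 the reverse. In 55 of the 77 the order of LSK and MP seen in wild type was reversed in Fbw7-deficient cells. The rule for the class uses the same values and favours such a reversal, so this count is no separate result. Irf8, the transcription factor gene that directs monocyte and dendritic cell fate, read 4955, 8366, 9804 and 3318, with differences of 0.76 in LSK and -1.56 in MP. Its further probe set gave a double difference of 2.35, next to 2.32. Csf1r, the macrophage colony-stimulating factor receptor gene, read 2567, 4281, 5624 and 2410. Ly86, the partner of the RP105 receptor, read 823, 2188, 3245 and 1112, and Ms4a6c, a membrane gene of monocytes, 2496, 4578, 4679 and 1592 (double difference 2.43; 1.56 with the mean of its probe sets). F13a1 read 1035, 6073, 6264 and 3531. In each of these 5 genes wild-type MP was above wild-type LSK and Fbw7-deficient LSK above Fbw7-deficient MP. Clec7a, the beta-glucan receptor dectin-1, read 419, 1789, 1908 and 1058, and Tifab 259, 1205, 1176 and 735. The monocyte and macrophage list had medians of 0.65 in LSK and 0.03 in MP, and in the double difference 17 of the 34 were 2-fold higher and 1 lower, against 2.2% and 1.32% of all genes; 4 of the 17 were opposite (0.629% of all genes). Spi1, which encodes PU.1, had differences of 0.47 and -0.06. The summed intensity of 6 monocyte or macrophage markers was 4319, 9645, 9218 and 5931, and the part of such cells was not tested.

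The B cell list had medians of 0.18 in LSK and -0.69 in MP. Of its 26 members 12 were 2-fold higher in the double difference and none lower, against 2.2% and 1.32% of all genes, and 8 were opposite, against 0.629%. Blnk, the B cell receptor adaptor gene, read 319, 969, 404 and 174. Rag1, the recombinase gene, read 221, 749, 162 and 74.5. Vpreb1, a surrogate light chain gene, read 518, 938, 655 and 266. Ebf1, the factor gene that commits cells to the B lineage, read 94.8, 220, 112 and 65.3, with only Fbw7-deficient LSK above the filter, whereas Pax5 had differences of -0.05 and 0.02. For Rag1 the double difference of 2.88 was 1.81 with dim values raised to the median, and that of Ebf1 was 0.49 in place of 1.99.

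The largest double difference of all belonged to Igha, the immunoglobulin A heavy chain gene. It read 221, 2696, 4238 and 523, higher by 3.61 in LSK and lower by 3.02 in MP on the log2 scale, a double difference of 6.63. Its other probe sets gave 6.86 and 3.87. All probe sets of Igha are of the kinds marked as cross-reacting, so the result could not be checked without them. Jchain, the joining chain of polymeric immunoglobulin, read 211, 725, 435 and 126. Both genes are characteristic of plasma cells. The plasma cell and immunoglobulin list had medians of 0.31 in LSK and -0.29 in MP, with 5 of 16 members 2-fold higher in the double difference (2.2% of all genes): Igha, Jchain, Ighm, Mzb1 and Irf4. That of Ighm depended on the probe set, as given above. For Irf4 it was 0.63 with dim values raised to the median, in place of 1.15. The summed intensity of 5 plasma cell markers was 6101, 10127, 13036 and 9628. Among these markers Xbp1 and Sdc1 had double differences of only 0.09 and 0.33. The summed intensity of 5 B cell markers was 1865, 2477, 2107 and 1285. The part of such cells in the result was not tested.

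The reverse pattern was rarer. Tgm2, a transglutaminase gene, read 2583, 1169, 628 and 1480, with a double difference of -2.38. Of its 4 further probe sets 3 gave -2.37, -2.34 and -1.26 and the other -0.07. Nr4a2, a nuclear receptor gene tied to quiescence, read 1290, 713, 226 and 324 (double difference -1.37; -0.71 with the mean of its probe sets). Acss2, an acetyl-CoA synthetase gene, read 859, 368, 718 and 1086 (double difference -1.82; -0.97 with the mean of its probe sets). Met, the receptor of hepatocyte growth factor, belonged to the larger group, at 366, 1487, 1941 and 696; its double difference was 3.50, and 1.91 with the mean of all its probe sets.

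**Figure D3:**
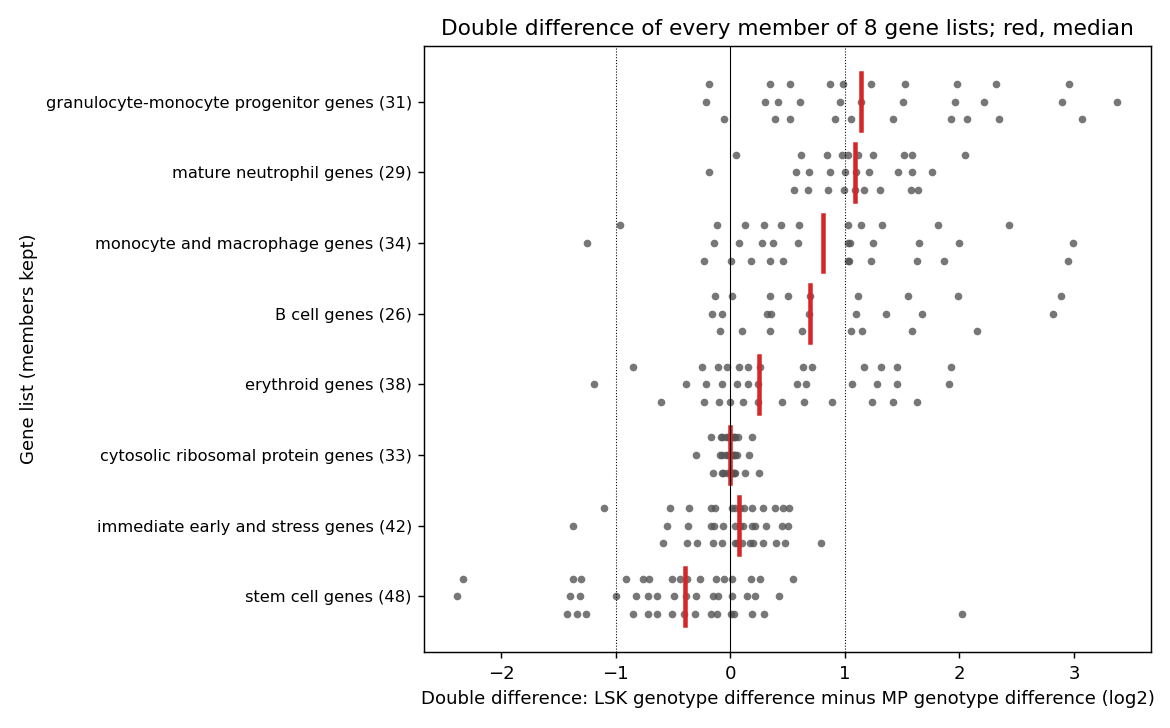
Double difference (x axis, log2) of every kept member of 8 gene lists (y axis, number of members in brackets), with 1 point per gene and a red bar at the median; dotted lines mark 2-fold and points are spread vertically only for visibility. The granulocyte-monocyte progenitor and mature neutrophil members lie mostly right of 0 (medians 1.14 and 1.08), the stem cell members mostly left (-0.40), and ribosomal protein genes cluster at 0.

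The immediate early and quiescence lists had medians below 0 in both populations, and most members stayed under 2-fold. Among immediate early genes 7 of 42 were 2-fold lower in LSK and 10 in MP, and among quiescence genes 8 of 39 and 11. Of all genes 1.95% were 2-fold lower in LSK and 1.49% in MP. The immediate early and stress list had medians of -0.66 in LSK and -0.57 in MP and a median double difference of 0.07. In the double difference 2 of 42 members were 2-fold lower and none higher, against 1.32% and 2.2% of all genes. Jun, of the AP-1 factor, read 11850, 6032, 7989 and 3955, and Fosb, its partner, 4206, 2024, 2758 and 1393. Egr1 read 20981, 11484, 7090 and 3335. Klf6, a zinc finger factor gene in this list and the quiescence list, read 10226, 2924, 4607 and 1612. Klf2, which keeps lymphocytes quiescent and is a reported Fbw7 substrate, read 12793, 5789, 6485 and 2697, lower by 1.14 and 1.27 on the log2 scale. In all 5 genes both Fbw7-deficient arrays lay below the wild-type array of the same population. The quiescence list had medians of -0.60 and -0.42 and a median double difference of -0.05. Its 1 uneven member was Foxo3, a factor gene of stem cell quiescence, at 2739, 1597, 922 and 1142 (double difference -1.09; -0.49 with the mean of its probe sets).

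The other shared lower genes included 3 MHC class II genes, which present antigen. Of 11 kept genes of that list 3 were 2-fold lower in LSK and 4 in MP, against 1.95% and 1.49% of all genes. The list had medians of -0.24 in LSK and -0.82 in MP, with 3 members above 0 in LSK and 2 in MP. H2-Ab1 read 1407, 568, 1248 and 500, H2-Aa 1172, 546, 895 and 294, and H2-Ob, of the chaperone that tunes peptide loading, 2461, 584, 469 and 104. These 3 genes stand next to each other in the gene order. Rgs1 and Rgs18, neighbouring genes for regulators of G protein signalling, had double differences of -0.11 and -0.03. Cd74, the invariant chain of the same antigen pathway, was MP-weighted instead, at 402, 370, 707 and 301. Among shared higher genes were the stefin genes Stfa3, at 52.4, 1240, 45.8 and 737, and Stfa2l1, at 96.2, 1063, 149 and 778; stefin copies are near-identical and probe sets may not separate them. Apol8, of the apolipoprotein L family, read 138, 1321, 224 and 1011. In Stfa3, Stfa2l1 and the LSK array of Apol8 the wild-type values lay below the filter. Of the 55 shared lower genes 38 were 2-fold higher in LSK than in MP in wild type, against 5.05% of all genes. In Fbw7-deficient cells 34 were so, against 3.86% of all genes.

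**Figure D4:**
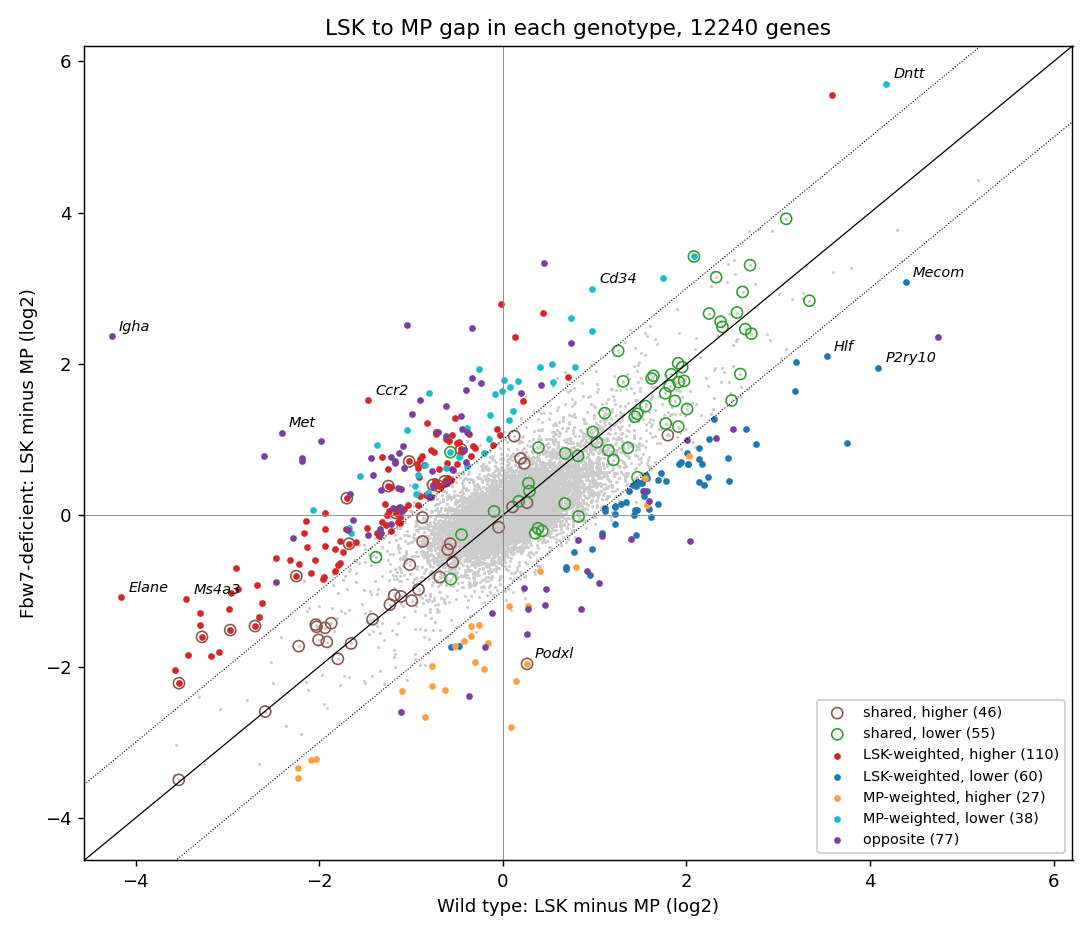
LSK minus MP difference in wild type (x axis, log2) against that in Fbw7-deficient cells (y axis, log2) for 12240 genes, coloured by class; the solid line is an equal gap and the distance from it is the double difference, so these are the same values arranged another way. Elane goes from -4.16 to -1.08, Mecom from 4.39 to 3.08 and Igha from -4.26 to 2.37.

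Fewer genes separated the populations in Fbw7-deficient cells. In wild type 618 genes (5.05%) were 2-fold higher and 294 (2.4%) 2-fold lower in LSK than in MP; in Fbw7-deficient cells these were 473 (3.86%) and 200 (1.63%). Of the 110 LSK-weighted higher genes 65 were 2-fold lower in LSK than in MP in wild type and 16 in Fbw7-deficient cells. These counts rest on the same 4 arrays as the double difference and add no separate measurement.

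**Figure D5:**
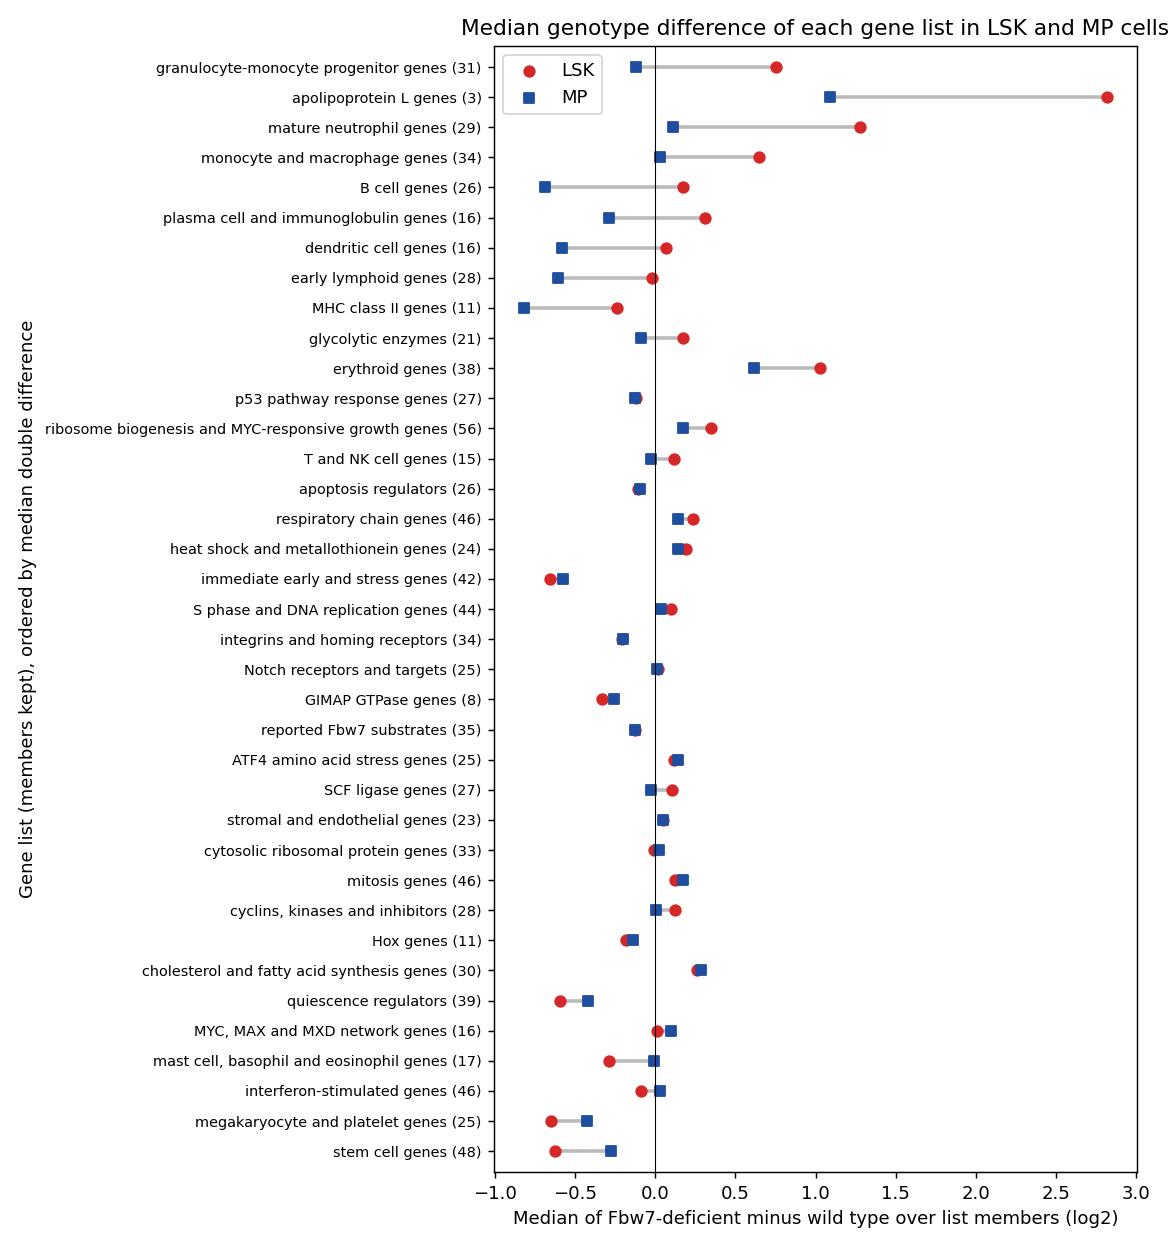
Median Fbw7-deficient minus wild-type difference (x axis, log2) over the members of each of 37 gene lists (y axis, number of members kept in brackets) in LSK (red circles) and MP (blue squares), ordered by median double difference. The apolipoprotein L list, with 3 genes, has the widest spacing between populations (2.82 in LSK and 1.09 in MP). Neutrophil, granulocyte-monocyte progenitor, B cell, dendritic cell and monocyte lists are also widely spaced, with LSK to the right. Cell cycle and cytosolic ribosomal protein lists have both symbols near 0.

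Growth and division genes showed little dependence on the population. The ribosome biogenesis and MYC-responsive list had medians of 0.35 in LSK and 0.17 in MP, with 44 of 56 double differences above 0 and none at 2-fold. The respiratory chain list had medians of 0.24 and 0.14, with 36 of 46 double differences above 0 and none at 2-fold. Over all genes 50% of double differences were above 0. The 33 kept cytosolic ribosomal protein genes had a median double difference of 0.00, the 44 S phase genes 0.07 and the 46 mitosis genes -0.01. Ccne1, which encodes the Fbw7 substrate cyclin E1, read 1260, 2553, 3445 and 6673, higher by 1.02 and 0.95 on the log2 scale. Its double difference was 0.06, and -0.30 on its other probe set. Ccnd1, for cyclin D1, was MP-weighted lower at 885, 1137, 976 and 454, with double differences of 0.38 and 0.75 on its other probe sets in place of 1.47. Myc had differences of 0.19 and 0.13.

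Of 35 kept genes for reported Fbw7 substrates the median difference was -0.13 in LSK and in MP, and the median double difference 0.04. Notch1 had differences of 0.21 and -0.76, and Hes1, its target, 0.26 and 0.05. Fbxw7 itself read 1355, 1103, 691 and 958, a double difference of -0.77, with -0.35 on its other probe set. The sources used here do not say which part of the gene was deleted, so these probe sets do not check the genotype labels.

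Interferon-stimulated genes had no common direction of the genotype difference in either population. All mice of both genotypes had received polyI:C. The list had medians of -0.09 in LSK and 0.03 in MP, and a median double difference of -0.22. Of its 46 double differences 31 were below 0 and 15 above, whereas 50% of all genes were above 0. At least 2-fold higher were 2 of the 46 and lower 2, against 2.2% and 1.32% of all genes. Gbp2, an interferon-induced GTPase gene, read 3121, 485, 555 and 169, lower in both populations. Its relative Gbp3 read 2424, 2272, 3727 and 1469, lower only in MP at 2-fold (-0.09 and -1.34). Ifi44l read 35.7, 305, 36.1 and 44.1, above the filter on the Fbw7-deficient LSK array only, with a double difference of 2.81 that was 0.96 with dim values raised. The promoters of Gbp2 (chr3:142620413-142620662, plus strand) and Gbp3 (chr3:142559794-142560043, plus strand) are shown because the genes differ in pattern while both hold the interferon response motif, found in 2.61% of all promoters. The motif is GAAA, any 2 bases and GAAA again, searched on both strands and allowed to overlap itself. Capitals mark the match, which lies on the other strand from 59 to 50 bases before the start in Gbp2 and as 2 overlapping matches from 45 to 30 bases before it in Gbp3.
Gbp2: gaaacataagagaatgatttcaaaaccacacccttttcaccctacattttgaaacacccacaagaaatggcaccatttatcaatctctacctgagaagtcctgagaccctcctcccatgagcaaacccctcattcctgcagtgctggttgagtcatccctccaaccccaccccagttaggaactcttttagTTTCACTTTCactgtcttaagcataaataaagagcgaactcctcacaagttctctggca
Gbp3: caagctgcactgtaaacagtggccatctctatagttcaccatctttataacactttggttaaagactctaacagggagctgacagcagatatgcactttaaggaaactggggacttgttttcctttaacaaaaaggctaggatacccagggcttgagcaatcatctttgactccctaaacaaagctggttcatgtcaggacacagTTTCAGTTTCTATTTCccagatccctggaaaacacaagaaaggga

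Heat shock and metal response genes were mixed. Hspa1a read 464, 2857, 1775 and 2807, and its neighbour Hspa1b 1301, 5049, 3321 and 6117, with double differences of 1.96 and 1.07; the genes are near-identical copies, so their signals cannot be fully separated. The other chaperone Hspa8 had a double difference of -0.05. Mt1, a metallothionein gene, read 472, 3346, 4573 and 10197, a double difference of 1.67, but its other probe set gave -0.33, and Mt2 had -0.63, so its direction between populations is not established. Of the 110 LSK-weighted higher genes 20 (18.2%) had an adjacent member of the same class. The share was 16.4% for shared lower, 10% for LSK-weighted lower, 9.09% for opposite and 8.70% for shared higher genes. It was 0% in both MP-weighted classes. Of all genes with a 2-fold higher double difference, which include these 110, it was 19.7%, and of those 2-fold lower 4.94%. No share over all genes or for sets of equal size was worked out. The 20 genes formed 11 pairs, among them Ccr1 and Ccr2, Cd177 and Ceacam10, and Slfn1 and Slfn4. In the opposite class 4 pairs were adjacent, including F13a1 with Ly86 and Ms4a4b with Ms4a6c. Neighbouring family members can share probe sequence, and its part was not tested.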

How the data were processed

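RNA of the 4 sorted groups was hybridised to Affymetrix arrays with 45101 probe sets, 1 array per group, after 2-cycle amplification of 20 ng of total RNA, per the labels' protocols. The authors deposited intensity values on a linear scale, made with RMA according to the submitters' processing notes; the sources used here give no version or settings for it. RMA equalises the distributions of arrays, so a change shared by most genes is not seen, and it compresses differences of dim genes. The array medians were 156, 159, 157 and 155.

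Here log2 was taken, and of 34958 probe sets naming exactly 1 gene the one with the highest mean was kept per gene; 932 naming several genes and 9211 unnamed ones were left out. Symbols were updated by gene ID in a RefSeq table (GRCm38.p6) for 34754 probe sets. Groups came from the array titles, and no column was left unmapped (0). The number of arrays limits the precision, and no test was made. Classes, 37 gene lists and the level filter were applied as described in the results. Members and lists were chosen with earlier results of these data known, and the lists overlap.

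Genes were named by a rule: the 10 largest double differences per weighted class and in the opposite class and the 8 largest smaller differences per shared class, ranked with dim values raised to the median; up to 3 members per list; and fixed names such as Fbxw7 and Myc. Clone names and genes whose probe sets disagree in sign were left out of the ranking. Agreement in sign between the probe sets of a ranked gene therefore follows from the rule. Named outside it after their values were seen were the neutrophil genes Ltf, Fcgr3, Mpo and S100a8; the erythroid genes Ermap, Gata1, Epor, Tal1 and Klf1; the stem cell and megakaryocyte genes Gfi1b, Hlf, Mllt3, Eya2, Meis1, Hoxa9, Procr, Pf4 and Itga2b; Jun, Fosb, Egr1, H2-Aa and Rgs18; Csf1r, Spi1, Ebf1, Pax5, Dntt, Ighm, Cpa3 and Hspa8; the neighbour pairs; and Efna2 and Lrfn3. The 7 alternatives tried were these: the mean of all probe sets, a stricter level filter, no level filter, dim values raised to the median, quantile normalization again, differences centred on their medians, and no probe sets of the kinds marked as cross-reacting. The procedure was tested on simulated data. Python 3.11.15, numpy 2.4.6, pandas 2.3.3 and matplotlib 3.10.9 were used.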

Additional observations from a re-analysis of the deposited data

Results flagged for a closer look

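In 77 genes the genotype difference had opposite signs in LSK and MP cells. The difference between the populations was not tested, since each group was 1 array. The double differences of the genes named from this group were 6.63 for Igha, 3.50 for Met, 3.38 for F13a1, 3.56 for Jchain, 2.96 for Ly86, 2.95 for Clec7a, 2.90 for Tifab, 2.81 for Blnk, 2.43 for Ms4a6c and -2.38 for Tgm2. Igha, Jchain and Blnk belong to the B cell and plasma cell lists and F13a1, Ly86, Clec7a, Tifab and Ms4a6c to the monocyte and granulocyte-monocyte lists.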

How the results depend on the processing

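No paired analysis was possible because every array title carries the same replicate number, so the groups share fewer than 2 numbers. With the mean of all probe sets, genes with a 2-fold lower double difference numbered 89 in place of 162, LSK-weighted lower genes 31, MP-weighted lower 21 and shared lower 27. With the stricter level filter these were 89 for the lower double difference, 31 for LSK-weighted lower, 15 for MP-weighted higher and 49 for opposite genes, which follows from fewer genes tested; the monocyte and macrophage median was 1.08 and the apolipoprotein L median 1.41. With no level filter the median double difference was -0.078 for megakaryocyte, 0.46 for monocyte and macrophage, 0.33 for plasma cell and 0.54 for apolipoprotein L genes. With dim values raised to the median, shared lower genes numbered 33. Without cross-reacting kinds of probe set the plasma cell median was 0.33, and the double differences of Mt1 and Ighm were reversed, at -0.33 and -0.019. Apart from probe choice, filter and dim values, the cause of a change was not tested. The centred and renormalized alternatives moved none of the 9 counts or 37 list medians past the limits used. Among named genes with a value, the double difference moved by more than 0.5 in 26 with the mean of all probe sets and in 15 with dim values raised. Signal near background limits the dim genes, of which the LSK-weighted lower class holds many: 28 of its 60 genes were above the filter on all 4 arrays.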
